A study of Mus musculus with 3 samples.

Results

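The genes of vesicle traffic between the endoplasmic reticulum (ER) and the Golgi were followed. They formed a set of 69 symbols among the 25410 in the data, chosen by their names. The choice was made with earlier results of these data known. The names took in Sec13 and the Sec16, Sec22, Sec23, Sec24 and Sec31 families, Sar1, the coatomer subunits (Cop and Arcn1), Arf, Tmed, Kdelr, Lman, Surf4, Golg and Trappc. Mia3, which the choice also named, was not analysed here. By role the set held 14 genes of the COPII coat, 15 of the COPI coat and its Arf GTPases, 19 cargo receptors, 8 golgins and 13 tethers and SNAREs. All samples belonged to 1 group of 3 replicate libraries from IDG-SW3, a mouse osteocytic cell line, at day 35 of differentiation, each exposed to 100 nM parathyroid hormone (PTH) for 24 h. IDG-SW3 is a conditionally immortalized line that is grown with interferon-gamma and then differentiated without it in medium with ascorbic acid and β-glycerol phosphate. The line was derived from mice that carry a temperature-sensitive large T antigen induced by interferon-gamma and a GFP driven by the Dmp1 promoter. The labels name no other altered gene, and libraries of cells given vehicle were not analysed here. What PTH did to these genes was therefore not measured, and the results are levels of the genes and differences between genes within the same libraries.

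Secretory proteins leave the ER in vesicles coated by COPII, in which the GTPase Sar1 recruits the inner coat of Sec23 and Sec24 and the outer cage of Sec13 and Sec31. Sec24 proteins bind cargo and cargo receptors, among them the p24 proteins encoded by Tmed genes. The COPI coat, recruited by Arf GTPases, returns receptors and escaped ER residents from the Golgi, these residents being bound to KDEL receptors. Tethers such as the TRAPP complex and the golgins catch arriving vesicles, and Sec22b is one of the SNAREs that fuse them. Osteoblasts and osteocytes secrete large amounts of collagen and other matrix proteins along this route.

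The libraries held 35195518 to 45240005 counts, of which 1.10 to 1.18% fell on the 69 genes. The deposited values were whole numbers per transcript row and were read as raw counts, although the files name them RPKM. Counts of a symbol were summed over its rows and given as RPKM, that is per kilobase of transcript and per 1000000 counts. Each level was tested two-sided against 1 and against 10 RPKM with edgeR's quasi-likelihood test, adjusted over 20998 genes. A gene is called above or below where the adjusted p was under 0.05, and unresolved otherwise. Nothing in the labels says that the 3 libraries came from separate cultures, so p-values measure the spread among them, which may be technical. Of 8 osteoblast markers, 7 were called above 1 RPKM and 6 above 10 RPKM. The transcription factor gene Sp7 stood at 2.11 ± 0.636 RPKM. Runx2, another such gene, was listed at 1.25 ± 0.0471 RPKM over 3 rows, and its value is not read as low expression. Among 6 osteocyte markers Pdpn (156 ± 27.6 RPKM) and Phex (9.05 ± 0.940) were called above, and defining markers of mature osteocytes were low, with Dmp1 at 0.652 ± 0.547 and 2, 0 and 0 counts for Sost. Of 16 markers of 6 other cell types, 5 were called above 1 RPKM, the highest being the adipocyte gene Fabp4 at 9.72 ± 3.19. All 5 were among the 12 of these markers with 1 row. The markers with several rows, such as Pecam1 and Plin1, are not read as absent.

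Most of the transport genes were well expressed. Of the 69, 56 were called above 1 RPKM, where 43.2% of all genes tested were, and 46 were called above 10 RPKM, where 20.6% were. Sec24c, Sec31b and Trappc9 were the members called below 1 RPKM, against 13.4% of all genes, while 8 were unresolved and Golga2 and Sec22c were listed at 0. Against 10 RPKM, 20 were called below, a call made for 73.9% of all genes. The median of the members' mean levels was 28.4 RPKM, beside 0.497 RPKM over all 23032 genes with a length. The medians by role were 21.3 RPKM for COPII, 49.0 for COPI and Arf, 45.1 for cargo receptors, 18.9 for golgins and 7.18 for tethers and SNAREs. Over members with 1 row they were 24.0, 54.9, 43.9, 36.0 and 15.4 RPKM in the same order, which puts golgins above COPII.

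**Figure D1:**
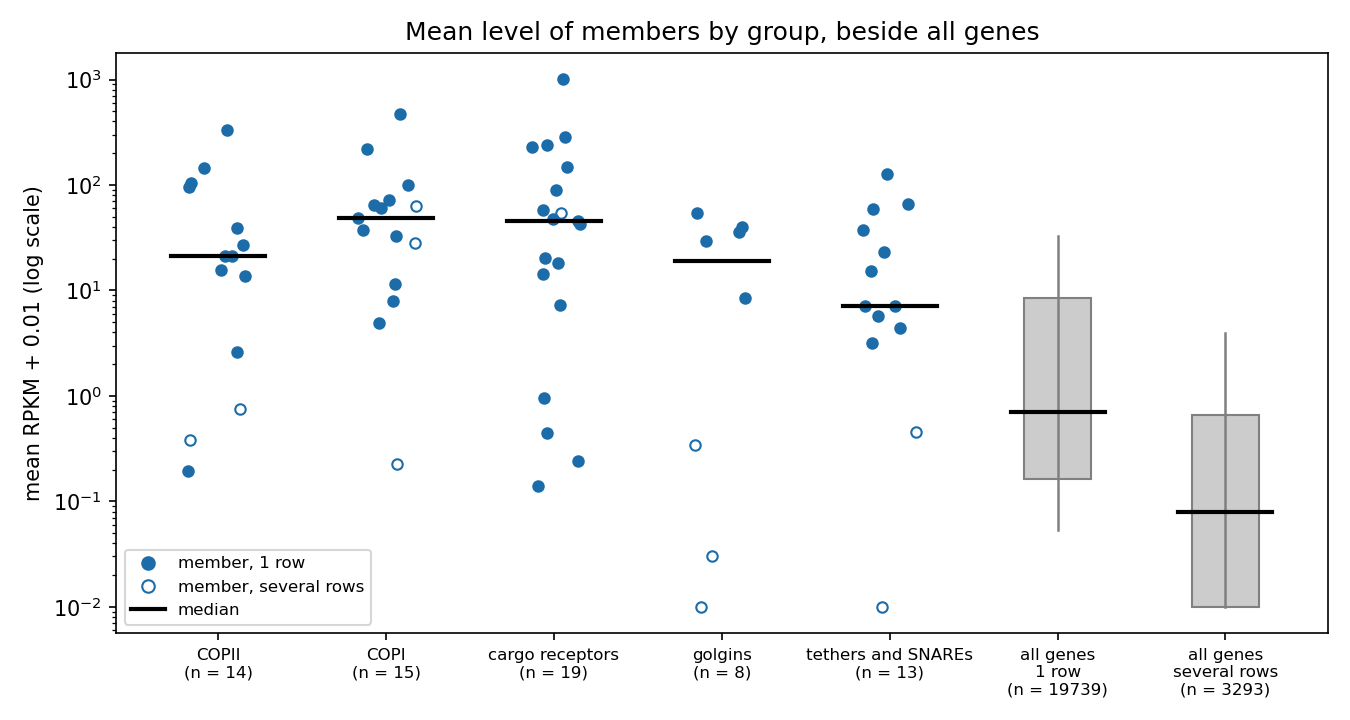
Mean RPKM over 3 libraries plus 0.01 (vertical axis, log scale) for the members of each role, with 1 dot per gene, filled for genes with 1 row and open for genes with several rows. The grey boxes give the 25th to 75th percentile, the whiskers the 10th to 90th percentile and the black bars the medians over all genes. All 5 medians of the roles stand above the 0.694 RPKM of all genes with 1 row.

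How many rows a symbol had in the deposited tables went with its level. The 58 members with 1 row had a median of 36.6 RPKM, and 53 of them were called above 1 RPKM, where 45.4% of all genes tested with 1 row were. The 11 members with several rows had a median of 0.371 RPKM, and 3 of them were called above, with 2 listed at 0. Of all 3293 genes with several rows, 564 were called above 1 RPKM and 1040 were listed at 0. Over all genes the medians were 0.694 RPKM with 1 row and 0.0693 RPKM with several. Arf1, Golga2, Golga7, Golga7b, Sec16b, Sec22c, Sec24c and Trappc9 were the low members with several rows. In Arf1 a row held all of the 2, 20 and 29 counts and the other row held 0, and both rows of Golga2 and of Sec22c held 0. The values of these 8 genes are therefore not read as low expression. The other members with several rows, Copg, Copg2 and Lman1, stood at 63.5 ± 2.18, 28.4 ± 1.23 and 53.6 ± 2.53 RPKM.

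**Figure D2:**
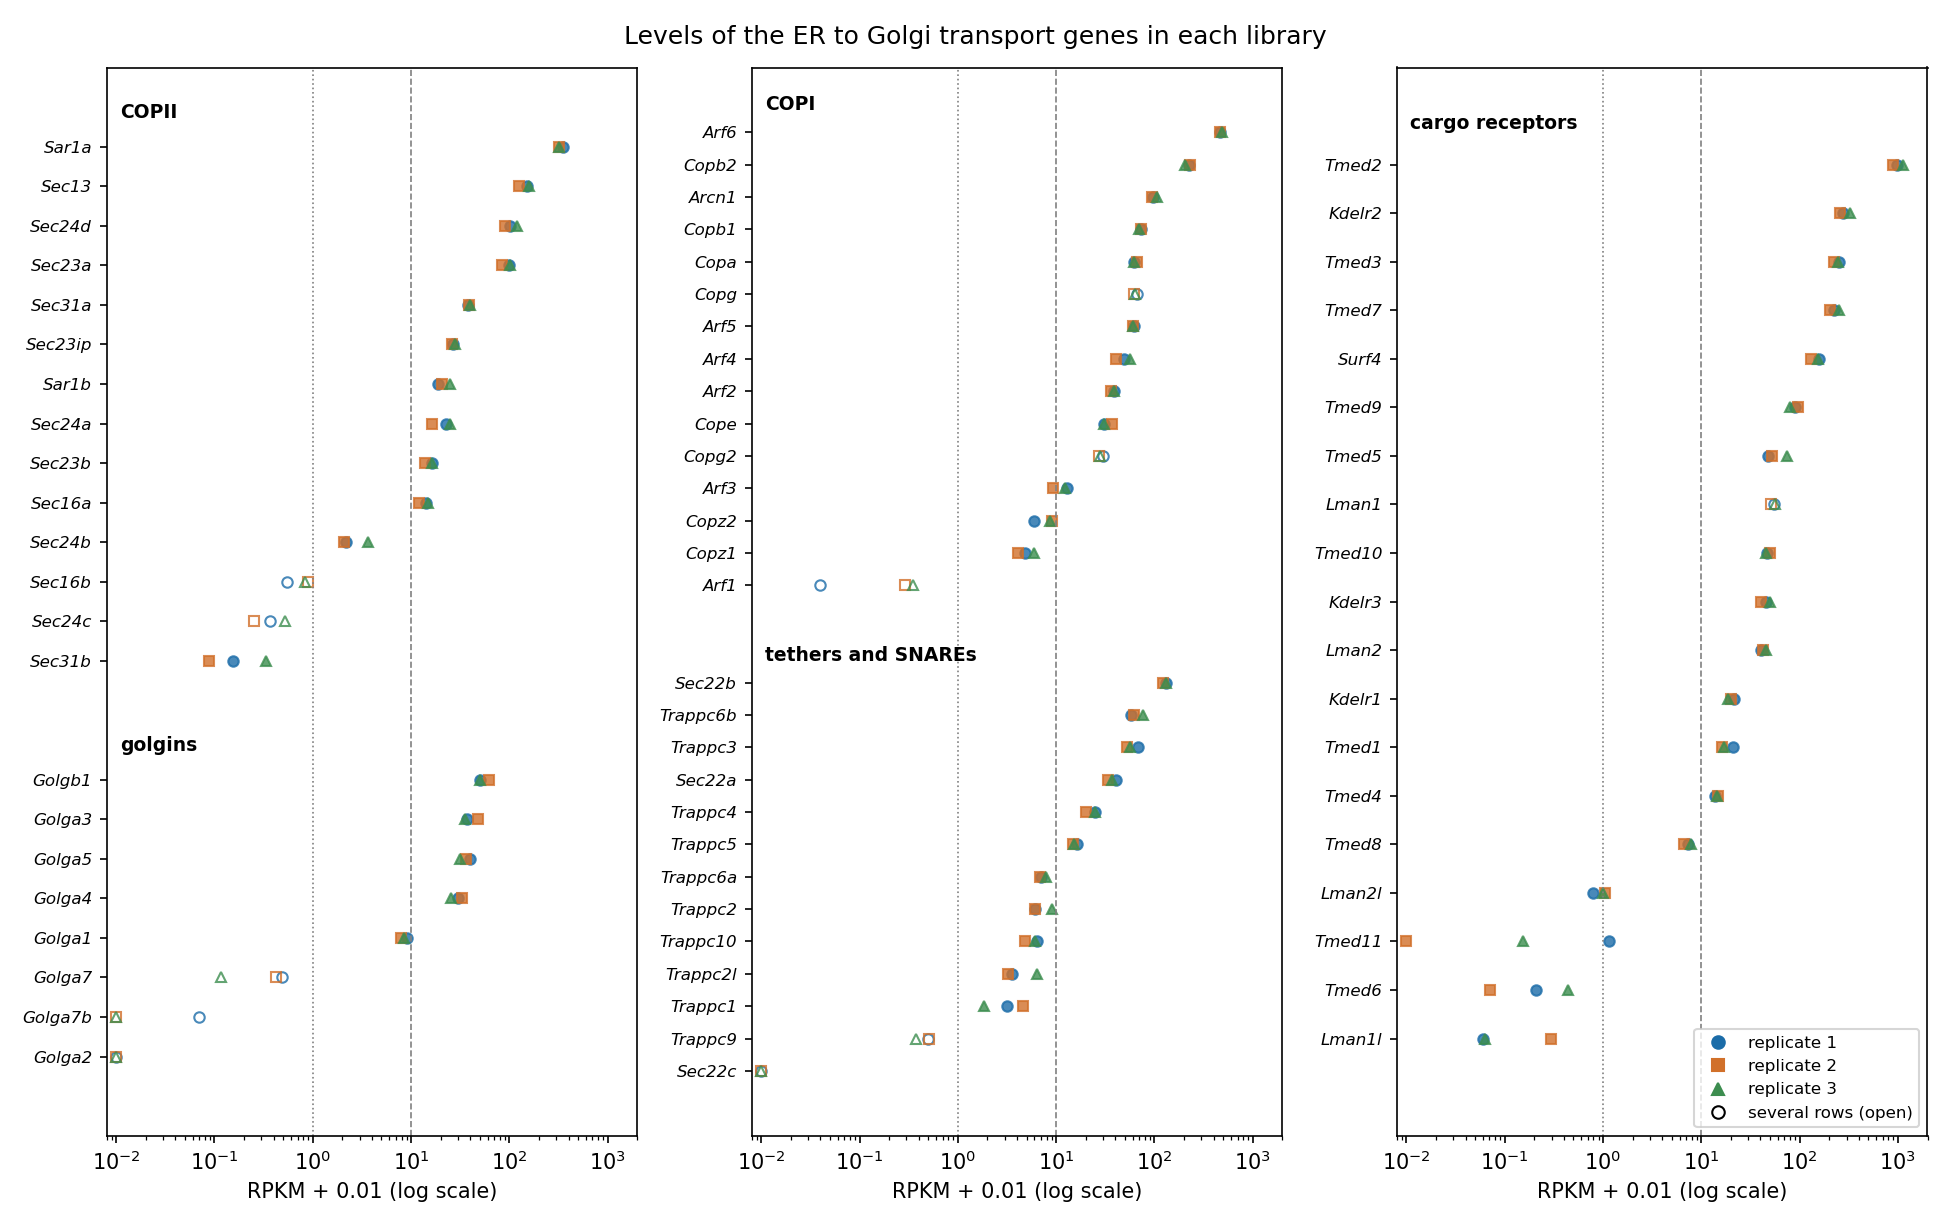
RPKM plus 0.01 in each library (horizontal axis, log scale) for all 69 members, ordered by mean within each role. Marks differ by replicate, open marks are genes with several rows, and the dotted and dashed lines stand at 1 and 10 RPKM. Tmed2 lies highest, and the libraries lie widest apart in genes under 1 RPKM such as Tmed11, while Trappc1 also spreads widely above it.

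In the COPII coat, Sar1a, Sec23a and Sec31a each lay above their paralogue in all 3 libraries, and Sec24d lay above Sec24a and Sec24b. Sar1a, the GTPase that starts coat assembly, had 351, 321 and 322 RPKM in replicates 1, 2 and 3, and its paralogue Sar1b had 18.6, 20.5 and 24.9 RPKM. The libraries of the 2 genes did not overlap, and Sar1a held 93.9 ± 1.08% of their summed level (SD, n = 3). The log2 ratio of Sar1a over Sar1b within a library was 3.96 ± 0.27, higher in 3 of 3 libraries. Over pooled counts per kilobase the ratio was 15.3 (95% counting interval 14.7 to 15.8); such intervals cover counting error only. Sec13, which the cage shares with the nuclear pore, had 149.9, 125 and 160.0 RPKM. Its partner Sec31a had 37.9, 39.2 and 40.1 RPKM, below Sec13 in every library. Sec31b, the paralogue of Sec31a, had 19, 11 and 55 counts and was called below 1 RPKM (edgeR adjusted p = 0.00788), a call lost in DESeq2. Sec31a over Sec31b gave a log2 ratio of 7.21 ± 0.61, and 5.09 with a pseudocount of 1 RPKM in place of 0.1.

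Sec23a, whose mutation in humans causes craniolenticulosutural dysplasia, a disorder of bone and eye, had 99.8, 85.1 and 100.4 RPKM. Sec23b, mutated in a human anaemia of red cell formation, had 16.3, 14.0 and 16.4 RPKM. Their log2 ratio was the steadiest of the pairs among libraries, with 2.60, 2.60 and 2.61, and Sec23a held 85.9 ± 0.0322% of the sum. With the longest transcripts the ratio was 2.3 and with the shortest 2.99. Sec24d, mutated in a human brittle bone syndrome, had 102, 91.1 and 118 RPKM and held 81.1 ± 1.57% of the summed level of the cargo-binding Sec24 family, with Sec24c as listed. Sec24a had 22.5, 16.4 and 25.1 RPKM, and Sec24b had 2.15, 2.06 and 3.65 RPKM. Every library of Sec24d lay above every library of Sec24a, and every library of Sec24a above those of Sec24b. The log2 ratio of Sec24d over Sec24a was 2.29 ± 0.15 and that over Sec24b was 5.29 ± 0.28. The annotated Sec24d transcripts range from 307 to 3903 bases, and with the longest transcript of each gene the ratio over Sec24b was 4.40, while with the shortest the ratios were 4.57 and 8.07. Sec24c had 54, 39 and 101 counts on 2 rows, so its place in the family is not read. Sec16a, the scaffold of ER exit sites, had 14.3, 12.0 and 14.8 RPKM, and its paralogue Sec16b had 0.541, 0.875 and 0.826 RPKM over 3 rows. Sec23ip, which binds Sec23, stood at 26.7 ± 0.911 RPKM. Of the 14 COPII genes, 11 were called above 1 and 10 above 10 RPKM.

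Promoter sequences were compared because genes of this route are known targets of transcription factors of the unfolded protein response. XBP1, ATF6 and the CREB3L factors bind elements built on TGACGTGG, and in mouse chondrocytes Sec23a is a target of Creb3l2. RefSeq promoter windows of GRCm38.p6, which run from 250 bases before to 50 bases after a start, were matched for 56 of the 69 genes. A gene counted as holding a motif if any of its windows did, and some genes, such as Arf1, have several windows. The number of windows per gene was not made equal between the members and all genes. TGACGTGG, searched on both strands, was present in 7 of the 56 members (12.5%) and in 193 of 27025 genes with a window (0.714%). Among genes in the data with a window it was present in 0.846%. Of 55 other genes of the route, taken from the list described further below, 3 held it. The 7 members were Sec23a, Sec24d, Sec16b, Kdelr3, Copb1, Copb2 and Arf1. In 5 of them, and in 0.189% of all genes, the match extended to TGACGTGGC, which contains the shorter motif. The cyclic AMP element TGACGTCA was present in Cope alone among the members (1.79%), beside 2.03% of all genes. It was present in 2.66% of genes in the data with a window and in 4 of the 55 other genes of the route. The ER stress element was present in 0 of 56 members and 0.137% of all genes. Sec23b, Sec24a, Sec24b, Sec24c, Kdelr1 and the Sar1 genes had a window without TGACGTGG. A match is a run of letters and not a shown binding site, and these libraries do not measure binding. The windows of the 5 matched genes with 1 row are given 5′ to 3′ on the gene's strand, with TGACGTGG or its reverse complement in capitals; Sec23a lies at chr12:59011968-59012267, minus strand, Sec24d at chr3:123267246-123267545, plus strand, Kdelr3 at chr15:79516158-79516457, plus strand, Copb1 at chr7:114254631-114254930, minus strand, and Copb2 at chr9:98563481-98563780, plus strand.
Sec23a: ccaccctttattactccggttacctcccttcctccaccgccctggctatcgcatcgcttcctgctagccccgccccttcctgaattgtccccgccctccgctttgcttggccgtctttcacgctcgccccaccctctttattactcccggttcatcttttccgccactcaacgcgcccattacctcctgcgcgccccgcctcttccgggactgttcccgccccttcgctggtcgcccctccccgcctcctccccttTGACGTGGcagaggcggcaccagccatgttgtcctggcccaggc
Sec24d: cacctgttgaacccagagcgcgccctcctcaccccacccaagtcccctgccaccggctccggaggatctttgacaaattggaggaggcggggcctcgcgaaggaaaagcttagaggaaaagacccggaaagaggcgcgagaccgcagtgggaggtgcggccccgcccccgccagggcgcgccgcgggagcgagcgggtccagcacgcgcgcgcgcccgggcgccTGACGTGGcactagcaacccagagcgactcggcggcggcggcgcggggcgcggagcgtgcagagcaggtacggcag
Kdelr3: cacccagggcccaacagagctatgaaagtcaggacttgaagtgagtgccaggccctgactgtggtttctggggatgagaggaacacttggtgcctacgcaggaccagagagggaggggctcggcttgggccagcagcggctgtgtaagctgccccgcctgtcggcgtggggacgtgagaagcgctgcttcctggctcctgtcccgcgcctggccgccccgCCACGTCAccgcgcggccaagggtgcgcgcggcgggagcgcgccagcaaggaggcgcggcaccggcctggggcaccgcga
Copb1: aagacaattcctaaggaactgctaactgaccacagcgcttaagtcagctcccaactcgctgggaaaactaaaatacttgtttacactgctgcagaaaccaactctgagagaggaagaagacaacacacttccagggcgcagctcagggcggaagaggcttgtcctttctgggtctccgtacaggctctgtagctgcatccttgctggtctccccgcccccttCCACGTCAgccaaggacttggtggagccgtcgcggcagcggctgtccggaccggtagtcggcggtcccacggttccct
Copb2: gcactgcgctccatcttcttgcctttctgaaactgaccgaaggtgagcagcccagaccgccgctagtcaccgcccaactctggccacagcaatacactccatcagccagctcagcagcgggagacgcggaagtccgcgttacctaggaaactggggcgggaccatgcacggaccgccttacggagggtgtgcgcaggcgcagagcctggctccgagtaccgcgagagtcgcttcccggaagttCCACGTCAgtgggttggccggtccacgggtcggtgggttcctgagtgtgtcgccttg
The element starts at base 257 of the window in Sec23a, at 225 in Sec24d, at 221 in Kdelr3, at 223 in Copb1 and at 244 in Copb2. Sec23a was higher than Sec23b, and Sec24d was higher than Sec24a and Sec24b. Kdelr3 was higher than Kdelr1 in every library and lower than Kdelr2, for which no window was matched. Copb1 and Copb2 both held the element and differed in level. Sec16b and Arf1 also held it and were listed below Sec16a and Arf3, whose windows lacked it. The log2 ratio of Sec16a over Sec16b was 4.04, and that of Arf1 over Arf3 was -5.36. Both Sec16b and Arf1 have several rows, so their levels are not read as low. Whether the element went with level was not tested. Of the factors themselves, Creb3l1 had 0.950, 1.41 and 2.34 RPKM and Creb3l2 0.473, 0.556 and 1.10 RPKM. Both were highest in replicate 3.

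The COPI coat is a complex of several kinds of subunit, and all 9 of its genes were called above 1 RPKM, 7 of them above 10 RPKM. Copb2, which encodes the beta-prime subunit, was highest with 223, 228 and 204 RPKM. Arcn1, the delta subunit, had 95.8, 95.3 and 106 RPKM, and Copb1, the beta subunit, 73.6, 72.4 and 70.1 RPKM. Arcn1 has a processed pseudogene with 97.0% identity over 1539 bases, so the counting of reads with several matches could shift its level. Copa (alpha) and Cope (epsilon) stood at 63.9 ± 2.70 and 32.8 ± 3.62 RPKM, and Copg (gamma 1) had 66.0, 61.9 and 62.6 RPKM. Copa and Copg overlapped, whereas Copb2, Arcn1, Copb1 and Copa each lay above the next in every library. Copz1, the zeta 1 subunit, had 4.82, 4.05 and 5.88 RPKM, and Copz2 had 5.99, 8.96 and 8.72 RPKM. Copz1 over Copz2 gave a log2 ratio of -0.66 ± 0.42, with Copz1 lower in 3 of 3 libraries, and that of Copb1 over Copb2 was -1.60 ± 0.06. Copz1 was called below 10 RPKM (edgeR adjusted p = 2.32e-08), and Copz2 was unresolved there (edgeR adjusted p = 0.0665). DESeq2 did not call Copz1 below 10 RPKM, and limma called Copz2 below, so this difference in calls depends on the tool. Copg exceeded Copg2, the other gamma gene (29.7, 27.3 and 28.1 RPKM), by 1.16 ± 0.02 on the log2 scale, by 0.45 with the longest transcripts, by 2.62 with the shortest and by 1.78 with the largest row of each gene. Copg2 shares 912 bases of exon with Mest on the opposite strand, and Mest stood at 131 ± 20.7 RPKM. Whether strand was used in counting is not given, so reads of the 2 genes cannot be told apart there.

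Among the Arf GTPases, Arf6 stood far above the rest. Arf6, which acts at the plasma membrane and endosomes and not in the COPI cycle, had 461, 468 and 488 RPKM and held 74.8 ± 1.18% of the summed Arf level, with Arf1 as listed. Arf5 and Arf4, class II Arfs that work at the early secretory pathway, had 61.5, 60.0 and 60.8 RPKM and 49.4, 41.0 and 56.6 RPKM. Arf5 was higher in 3 of 3 libraries (log2 ratio of Arf4 over Arf5 -0.32 ± 0.22), and the gap was narrowest in replicate 3. On the opposite strand, Arf5 shares 313 bases of exon with Gcc1, which stood at 42.1 ± 2.62 RPKM. Arf4 shares 400 bases with Pde12, at 2.06 ± 0.0791 RPKM. As for Copg2, reads cannot be told apart there, which limits the reading of this small ratio. Arf2, a class I Arf that mice have and humans lack, had 38.5, 36.0 and 38.4 RPKM. Arf3, also class I, had 12.8, 9.29 and 12.4 RPKM. Its call above 10 RPKM (edgeR adjusted p = 0.0291) was lost without replicate 1, without replicate 3, with a minimum of 10 counts, in limma and in DESeq2. Arf1, the usual recruiter of COPI, is a gene with several rows, and its 2, 20 and 29 counts leave its level uncertain.

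Cargo receptors held the highest level of the whole set, and 15 of 19 were called above 1 RPKM and 14 above 10. The p24 proteins are small membrane proteins that cycle between ER and Golgi and join in complexes of different subfamilies. Tmed2, the beta member, had 990.3, 895 and 1125 RPKM, more than any other member in each library, and held 58.7 ± 1.69% of the summed p24 level. Tmed10, the delta member and the partner of Tmed2, had 46.3, 50.3 and 45.2 RPKM. Their log2 ratio was 4.40 ± 0.24, and 3.64 with the shortest transcripts. Both have processed pseudogenes with near-identical sequence, over 604 bases at 100% identity for Tmed2 and 660 bases at 99.4% for Tmed10, so the counting of reads with several matches could shift their levels. In the gamma subfamily, Tmed3 had 254, 224 and 244 RPKM and Tmed7 226, 206 and 249.8 RPKM. These 2 genes overlapped, and their order differed among libraries (log2 ratio of Tmed7 over Tmed3 -0.09 ± 0.11, higher in 1 of 3). Tmed7 shares 838 bases of exon with Ticam2, which stood at 0.207 ± 0.0385 RPKM. Tmed5 had 47.2, 52.6 and 73.9 RPKM, with replicate 3 above the others, and Tmed1 had 21.0, 16.1 and 17.1 RPKM. Tmed5 over Tmed1 gave a log2 ratio of 1.65 ± 0.47, 0.43 with the longest transcripts and 3.40 with the shortest. Of the alpha subfamily, Tmed9 had 89.9, 96.8 and 79.2 RPKM and Tmed4 13.9, 14.8 and 14.3 RPKM, a log2 ratio of 2.62 ± 0.13. Tmed6 and Tmed11 had 6, 2 and 17 counts and 31, 0 and 5 counts and were unresolved against 1 RPKM. Tmed8, a distant relative, stood at 7.21 ± 0.616 RPKM.

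The KDEL receptors, which return chaperones that carry the KDEL signal from the Golgi to the ER, differed in level in every library. Kdelr2 had 274, 258 and 329 RPKM, Kdelr3 had 45.3, 40.0 and 49.9 RPKM, and Kdelr1 had 21.7, 20.1 and 18.5 RPKM. The 3 genes did not overlap, and Kdelr2 held 81.4 ± 1.24% of their sum. The log2 ratio of Kdelr2 over Kdelr1 was 3.82 ± 0.28, and 3.13 with the shortest transcripts, and that of Kdelr3 over Kdelr2 was -2.67 ± 0.06. Surf4, a receptor that speeds the ER exit of many soluble proteins, had 157, 130.0 and 153 RPKM, with replicate 2 below the others. Among the lectins, Lman1 (ERGIC-53), which carries clotting factors and other glycoproteins, had 54.6, 50.8 and 55.5 RPKM. Lman2 (VIP36) had 40.4, 42.1 and 45.4 RPKM, and its libraries lay below all of Lman1 (log2 ratio of Lman1 over Lman2 0.33 ± 0.09). With the longest transcripts that ratio was -0.05 and with the shortest 1.37, so the order rests on the lengths taken. Lman2l had 0.782, 1.04 and 0.983 RPKM and was unresolved against 1 RPKM (edgeR adjusted p = 0.757). The log2 ratio of Lman2 over Lman2l was 5.38 ± 0.16, and 4.50 with a pseudocount of 1 RPKM. Lman1l had 3, 18 and 4 counts.

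The golgins, long coiled-coil proteins that capture vesicles at the Golgi, were called above 1 RPKM in all 5 genes with 1 row. Golgb1, which encodes giantin, had 50.2, 62.3 and 49.7 RPKM and was highest. Golga3 (golgin-160) had 37.0, 47.6 and 35.6 RPKM, Golga5 (golgin-84) 39.6, 36.5 and 31.8 RPKM and Golga4 (golgin-245) 30.0, 32.7 and 25.5 RPKM. Golga3 and Golga5 overlapped, as did Golga5 and Golga4. Golga1 (golgin-97) was lower, at 8.98, 7.91 and 8.42 RPKM, and was called above 1 and below 10 RPKM (edgeR adjusted p for 10 RPKM = 0.0175). The call below 10 RPKM was lost without replicate 2 and in DESeq2. Golga2 (GM130), the cis-Golgi golgin, was listed at 0 on 2 rows, so its ratio to Golga5 is not given. A count of 0 allows up to 3 counts in a library. Golga7 and Golga7b, which are partners of palmitoyltransferases and not tethers in spite of their names, had 31, 29 and 9 counts and 6, 0 and 0 counts.

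Genes of the TRAPP complex, the guanine nucleotide exchange factor and tether that acts on Rab GTPases, were lower than the coats, with a median of 7.11 RPKM over 10 subunits. Trappc6b had 58.2, 61.9 and 76.0 RPKM and Trappc3 67.4, 52.5 and 55.8 RPKM, and these highest subunits overlapped. Trappc4 stood at 23.2 ± 2.70 and Trappc5 at 15.4 ± 0.692 RPKM; Trappc4 shares 462 bases of exon with the ribosomal protein gene Rps25 on the opposite strand, which stood at 192 ± 20.2 RPKM. Trappc6b exceeded its paralogue Trappc6a (6.93, 6.83 and 7.79 RPKM) with a log2 ratio of 3.16 ± 0.11, or 2.63 with the longest transcripts and 3.04 with the shortest. Trappc6b has a processed pseudogene with 96.0% identity over 473 bases, which could also shift its level. Trappc2, or sedlin, mutated in a human dysplasia of the spine and joints, had 6.05, 6.09 and 8.96 RPKM, with replicate 3 highest. Trappc2l had 3.54, 3.25 and 6.41 RPKM and was lower than Trappc2 in 3 of 3 libraries (log2 ratio -0.71 ± 0.21). Trappc10, a subunit of the TRAPPII form, stood at 5.71 ± 0.833 RPKM, and Trappc1, a core subunit, had 3.16, 4.57 and 1.82 RPKM. Trappc9, the other TRAPPII subunit, had 56, 61 and 55 counts over 5 rows and was called below 1 RPKM (edgeR adjusted p = 0.0226), a call lost without replicate 1 or replicate 2, with the shortest transcripts and in DESeq2. In the Sec22 family, Sec22b had 130.0, 121 and 131 RPKM and Sec22a 40.6, 33.8 and 37.3 RPKM. Sec22b, the family member known to act between ER and Golgi, was higher in 3 of 3 libraries (log2 ratio 1.77 ± 0.09). With the longest transcripts the ratio was 1.22 and with the shortest 1.21.

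**Figure D3:**
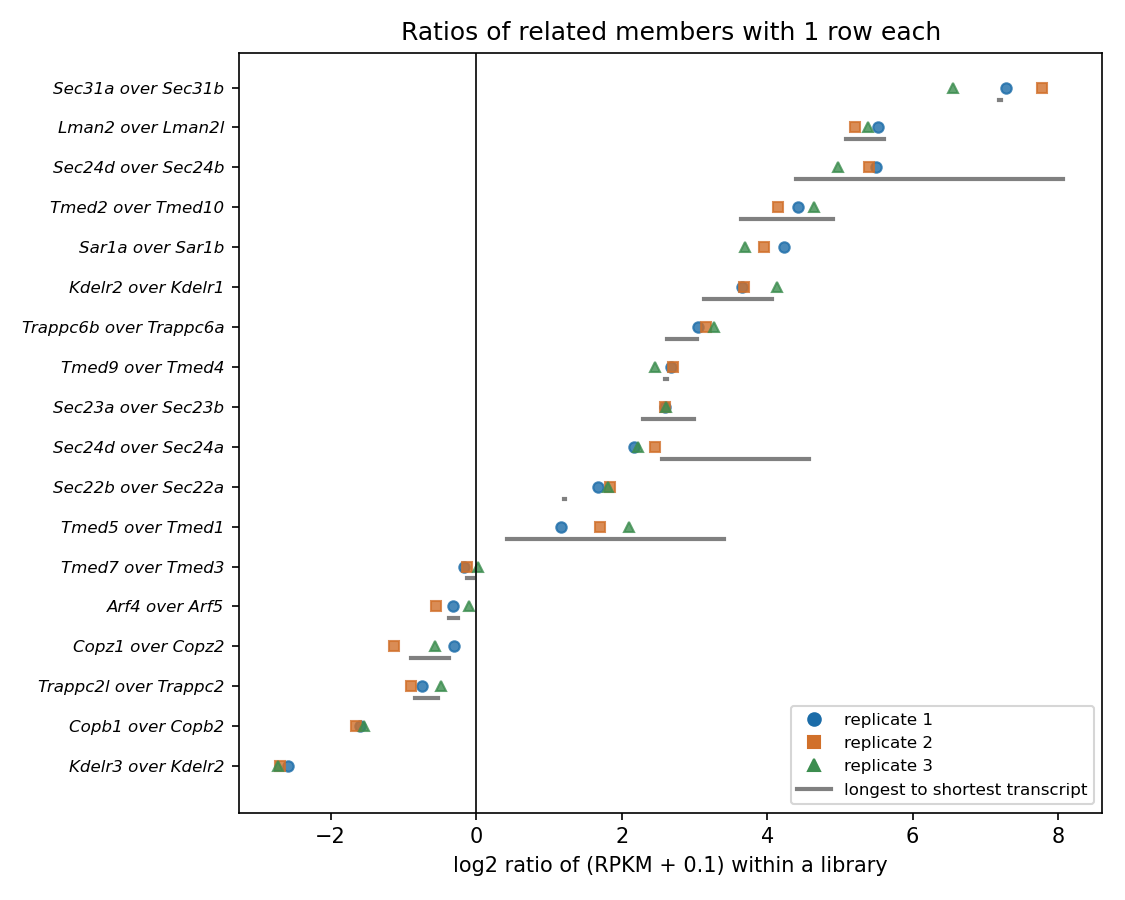
Log2 ratio of RPKM plus 0.1 within each library (horizontal axis) for the 18 pairs of related members with 1 row each; marks are replicates and grey bars join the mean ratios with the longest and the shortest transcripts. In 17 of the 18 pairs all libraries lie on the same side of 0, the exception being Tmed7 over Tmed3.

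Across all 25 pairs compared, 24 had the same direction in all 3 libraries, and 17 of the 18 pairs with 1 row on each side did. The pairs were chosen with earlier results of these data known, and no share over arbitrary pairs of genes is given here. These counts therefore only describe the pairs listed. The pairs were not tested, because 3 libraries allow an exact sign-flip permutation p no smaller than 0.25. When members were ordered by level within their role, 42 of 64 neighbouring members did not overlap between libraries and 22 did. For neighbours, too, no share over all genes is given, and the order was taken from the same levels.

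The libraries differed slightly, and not in the same way for every role. Over the members with 1 row and a mean of at least 5 RPKM, each library was set against the mean of the other libraries. In COPII, 9 of 10 genes were highest in replicate 3 and 8 of 10 lowest in replicate 2, with a median log2 deviation of -0.23 for replicate 2. For Sec23a and Sec23b, replicates 3 and 1 were nearly equal, at 100.4 and 99.78 RPKM and at 16.39 and 16.34 RPKM. Sar1a was the COPII gene that was highest in replicate 1. Of the 9 tethers and SNAREs, 7 were lowest in replicate 2. Golgins went the other way, with 4 of 5 lowest in replicate 3 (median log2 deviation -0.25) and 3 of 5, Golgb1, Golga3 and Golga4, highest in replicate 2. Golga1 and Golga5 were highest in replicate 1. In the COPI and Arf genes the median deviations were 0.02, -0.02 and 0.04 for replicates 1, 2 and 3.

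**Figure D4:**
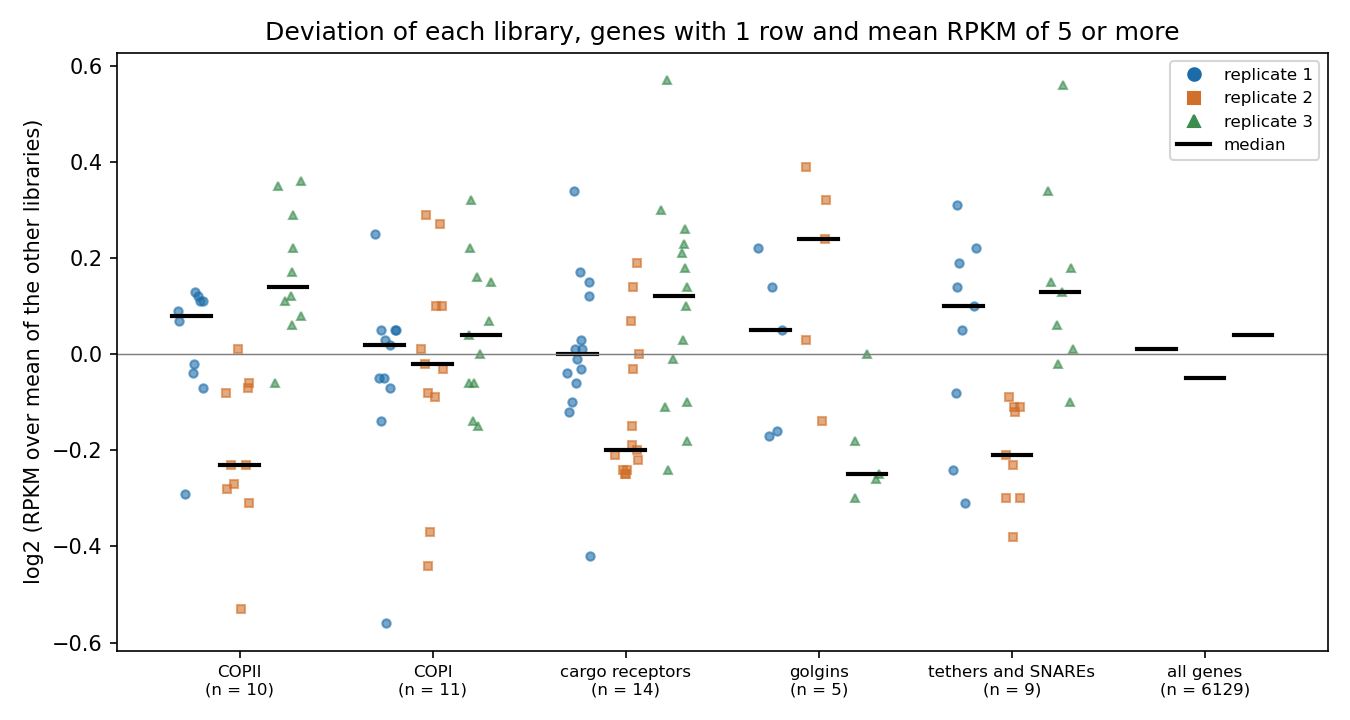
Log2 of the RPKM in a library over the mean of the other libraries (vertical axis) for members with 1 row and a mean of at least 5 RPKM, by role; marks are genes, colours and shapes replicates, and black bars medians, with the medians of all 6129 such genes at the right. Replicate 3 is the lowest of the medians in golgins and the highest in COPII.

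Over all 6129 genes with 1 row and a mean of at least 5 RPKM, replicate 3 was highest in 44.3% and lowest in 28.8%, and replicate 2 was highest in 26.0% and lowest in 43.4%. Golgin transcripts are long, with a median of 6469 bases in these 5 genes. Among all genes with transcripts over 6000 bases, replicate 2 was highest in 34.2% and replicate 3 highest in 51.3% and lowest in 23.9%. Among genes of up to 1500 bases these shares were 23.8%, 40.6% and 28.7%. Replicate 1 was lowest in 45.1% of the genes over 6000 bases and in 25.1% of those up to 1500 bases. It was highest in 14.5% and 35.6% of them. Of the 5 golgins, replicate 1 was lowest in 0 and highest in 2. Transcript length moved with the library deviations over all genes, and its part in the golgin values was not tested. No label separates the 3 libraries beyond the replicate number.

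Other genes of the route, from a list of 58 of which 57 had a value, were also mostly expressed. Of these, 49 were called above 1 RPKM, where 43.2% of all genes tested were, and 33 above 10 RPKM, where 20.6% were. A call below 1 RPKM was made for 1 of them and for 13.4% of all genes tested. Their median was 15.5 RPKM, beside 0.497 RPKM over all genes with a length. At ER exit sites, Preb, the exchange factor that loads Sar1 with GTP, stood at 8.73 ± 0.341 RPKM, and Tfg, which organizes COPII at exit sites, at 15.5 ± 1.38. The highest genes of that class were Cul3 (65.4 ± 3.81), whose ubiquitin ligase modifies Sec31 in collagen export, and Pdcd6 (40.6 ± 6.61), a calcium-binding partner of Sec31. Klhl12, the adaptor that brings Cul3 to Sec31, stood at 16.9 ± 1.34 RPKM. Mia2, called below 1 RPKM (edgeR adjusted p = 0.028), had 0.251, 0.0474 and 0.328 RPKM. Ctage5, listed in the same class, was the gene without a value, so its level is not known here. A value needed a matched transcript length, and a synonym was not used where its current name was itself listed. Whether the Mia2 level leaves out counts listed under another name was not checked. The highest cargo adaptors were Cnih1 (listed as Cnih) with 54.3, 48.2 and 71.3 RPKM and Yipf5 with 48.2, 52.0 and 59.6 RPKM. Mcfd2, the partner of Lman1, was listed at 0.489 ± 0.0775 RPKM. Among fusion factors, the SNARE Ykt6 had 134, 115 and 109 RPKM and the SNARE Bet1 92.6, 72.0 and 103 RPKM. Among Golgi factors outside the name pattern, Golt1b had 183, 153 and 170.1 RPKM and Golph3, which binds Golgi phosphoinositides, 87.2, 79.5 and 109.5 RPKM. In the Arf cycle, Arfgap3 stood at 47.4 ± 2.26 and the exchange factor Gbf1 at 4.11 ± 0.298 RPKM. Arfgap2, Gorasp2 and Yif1b were listed at 0. These genes and Mcfd2 have 2 rows each, and their values are not read as low expression.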

How the data were processed

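Total RNA was depleted of ribosomal RNA and made into ScriptSeq libraries that keep strand, per the labels' protocols. The deposited files hold whole numbers for 30795 transcript rows per library, which were read as raw counts without normalization, since they sum to 35195518, 37299517 and 45240005 in replicates 1, 2 and 3. Another whole-number quantity could have been deposited, and every RPKM and interval rests on this reading. TopHat and mm9 are named in the submitters' processing notes; for versions, counting tool and annotation, the sources used here say nothing. Rows were summed per symbol. Lengths were medians over basic transcripts of GENCODE M21 (GRCm38), with 20840 symbols found as written and 2192 by a RefSeq synonym, while 2378 were left out. These lengths stand for those the authors' annotation would give. No coordinates were moved between builds.

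Levels were tested with edgeR 4.0.16 in R 4.3.3 (trended dispersion, robust, the expected count at 1 or 10 RPKM as offset, a Poisson bound on p, Benjamini-Hochberg adjustment), for genes above 0 in at least 1 library. The F test was built from the deviances of that fit and checked on simulated data. DESeq2 1.42.0, limma 3.58.1, TMM and median-ratio scaling, a minimum of 10 counts, longest and shortest transcripts, the largest single row and leaving out each library were alternatives. Ratios used log2(RPKM + 0.1). Count intervals are exact 95% binomial intervals, and without molecular identifiers reads are not single molecules. Near-identical transcripts were sought with blastn 2.17.0 (at least 95% identity over 200 bases), and 17 members had one in another gene; exons of 24 members overlapped another gene. The members, gene lists and pairs were chosen with earlier results of these data known. Any member could be named; library values are given for genes of the pairs and the highest and lowest of each role, and of the other genes the highest of each class and those called below 1 RPKM. Preb, Tfg, Klhl12, Mcfd2, Creb3l1 and Creb3l2 were named for their role after their values were seen.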

Additional observations from a re-analysis of the deposited data

How the results depend on the processing

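The count of members above 1 RPKM was 56 under each alternative except DESeq2, which lost Sec24b and Trappc1, and the count above 10 RPKM ranged from 41 to 46. Members below 1 RPKM numbered 3, but 9 with limma, 2 with the shortest transcripts, without replicate 1 or without replicate 2, and 0 with DESeq2, where 1 was below at an unadjusted p under 0.05. Members below 10 RPKM numbered 20, 21 with limma, 19 with the shortest transcripts or a minimum of 10 counts, 13 with DESeq2, and 15, 14 and 18 without replicate 1, 2 and 3. Over all genes, 2815 were below 1 RPKM, with 268 by DESeq2, 9600 by limma and between 910 (without replicate 2) and 2561 with a library left out (1224 without replicate 1). The cause was not tested.

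Group medians moved most with the rows and lengths. The golgin median of 18.9 RPKM was 36.0 over members with 1 row and 32.7 over members at 0.1 RPKM or more, and that of tethers and SNAREs was 15.4 and 11.3 in place of 7.18. The longest transcripts gave 38.8 for COPI and 33.5 for cargo receptors, and the shortest 63.3 for COPI. With a library left out, the cargo receptor median lay between 42.6 and 45.7. Lman1 over Lman2 reversed to a log2 ratio of -0.05 with the longest transcripts, Sec24a fell to -0.06 against 10 RPKM with them, and Lman2l, unresolved throughout, was at a log2 level of 0.21 against 1 RPKM with the shortest transcripts, and between -0.18 and 0.01 with a library left out. Of the 25 pair ratios, none reversed under the pseudocount of 1, the shortest transcripts, the largest row or a library left out.

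No paired analysis was possible because all samples belong to 1 group. Genes with few counts, such as Tmed6, Tmed11, Lman1l and Golga7b, are limited by depth, and those with several rows by the counting.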
